A study of Mus musculus with 12 samples.

Results

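The genes described here are 45 components of the T-cell receptor (TCR) signalling pathway, comprising the receptor complex, its proximal kinases, adaptors, effector enzymes, phosphatases and brakes. They were listed by name and role in the pathway, and all 45 were found among the 52635 genes of the deposited expression table. Each of the 45 also passed the filter on low values, which kept 11922 genes for testing.

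The TCR has no enzymatic activity of its own. When it binds antigen with help from the CD4 coreceptor, the kinase Lck phosphorylates the CD3 and zeta chains, Zap70 docks there and phosphorylates the adaptors Lat and Slp-76, and these assemble the enzymes that raise calcium and diacylglycerol and switch on Ras and NF-kB. Some phosphatases, as well as diacylglycerol kinases, ubiquitin ligases and inhibitory adaptors, limit the signal. Retinoic acid (RA), the vitamin A metabolite added in this study, binds RARα and its relatives in the nucleus.

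The study measured RNA of mouse naive CD4 T cells of the C57BL/6 strain in 6 groups of 2 libraries each. Cells came from RARα TG, RARα KO or WT mice and were cultured either with 10 nM RA or without RA. All groups were activated for 24 h with anti-CD3 and anti-CD28 in medium with charcoal-stripped serum, together with IL-6, IL-1β, IL-21, IL-23, TNFα and TGFβ-1 and with antibodies against IFNγ and IL-4. The sources used here do not give the promoter of the RARα TG construct, the RARα KO allele or whether replicates came from separate animals. Each p-value therefore covers only the variation among these libraries, which may be technical in WT and KO. The 2 TG libraries of each condition differed in sex by their transcripts, as given below, so they did not come from the same animal. Every group was stimulated through the receptor by anti-CD3, and no unstimulated cells were part of the comparison.

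The depth recovered from the values was 16274361 to 25514982 reads per library. Rara itself, the gene that encodes RARα, had 126 and 119 FPKM (reads scaled by gene length and library size) in TG cells with RA and 72.8 and 63.3 FPKM in TG cells without RA. The libraries labelled KO had 16.8 and 17.6 FPKM with RA and 19.5 and 19.3 FPKM without RA, and WT libraries had 12.3 and 14.2 FPKM with RA and 16.5 and 18.9 FPKM without RA. The gene-level value was thus high in TG cells but not lower in the libraries labelled KO than in WT, and it cannot show whether a part of the gene was deleted. From Xist and Y-linked transcripts, all 4 WT libraries were male, all 4 libraries labelled KO were female, and TG replicate 1 was male and TG replicate 2 female in both conditions. T-cell genes were abundant in all libraries. The summed level of 11 defining genes (Trac, Trbc1, Trbc2, the CD3 genes, Cd4, Cd2, Cd28, Thy1 and Lck) was 1396 to 1604 FPKM in TG cells with RA, 1529 to 1735 FPKM in TG cells without RA, and 1539 to 2072 FPKM in the other groups. The sum joins opposite moves. With RA in TG cells, 5 of the 11 were higher and 5 lower by the test described below, which called 39.1% of all tested genes. Trbc2 had 282 and 222 FPKM with RA, against 428 and 340.3 FPKM without RA.

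Most components were abundant messages. The median level of the 45 genes, each averaged over the 12 libraries, was 39.8 FPKM, against 8.92 FPKM over all tested genes. By this length-scaled level, 16 components were in the top 10% of tested genes and 30 were in the top 25%, while 8 were in the lower 50%, and none was listed at 0 in any library. The highest were Cd5, an inhibitory receptor that travels with the TCR, at 322 FPKM, the membrane scaffold Lat at 247 FPKM, Lck at 234 FPKM, Cd6, a receptor related to Cd5, at 201 FPKM, and the paracaspase Malt1 at 106 FPKM. The lowest were the adaptor Nck2 at 2.42 FPKM and Tespa1, a thymocyte-expressed regulator of receptor signalling, at 1.36 FPKM.

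**Figure D1:**
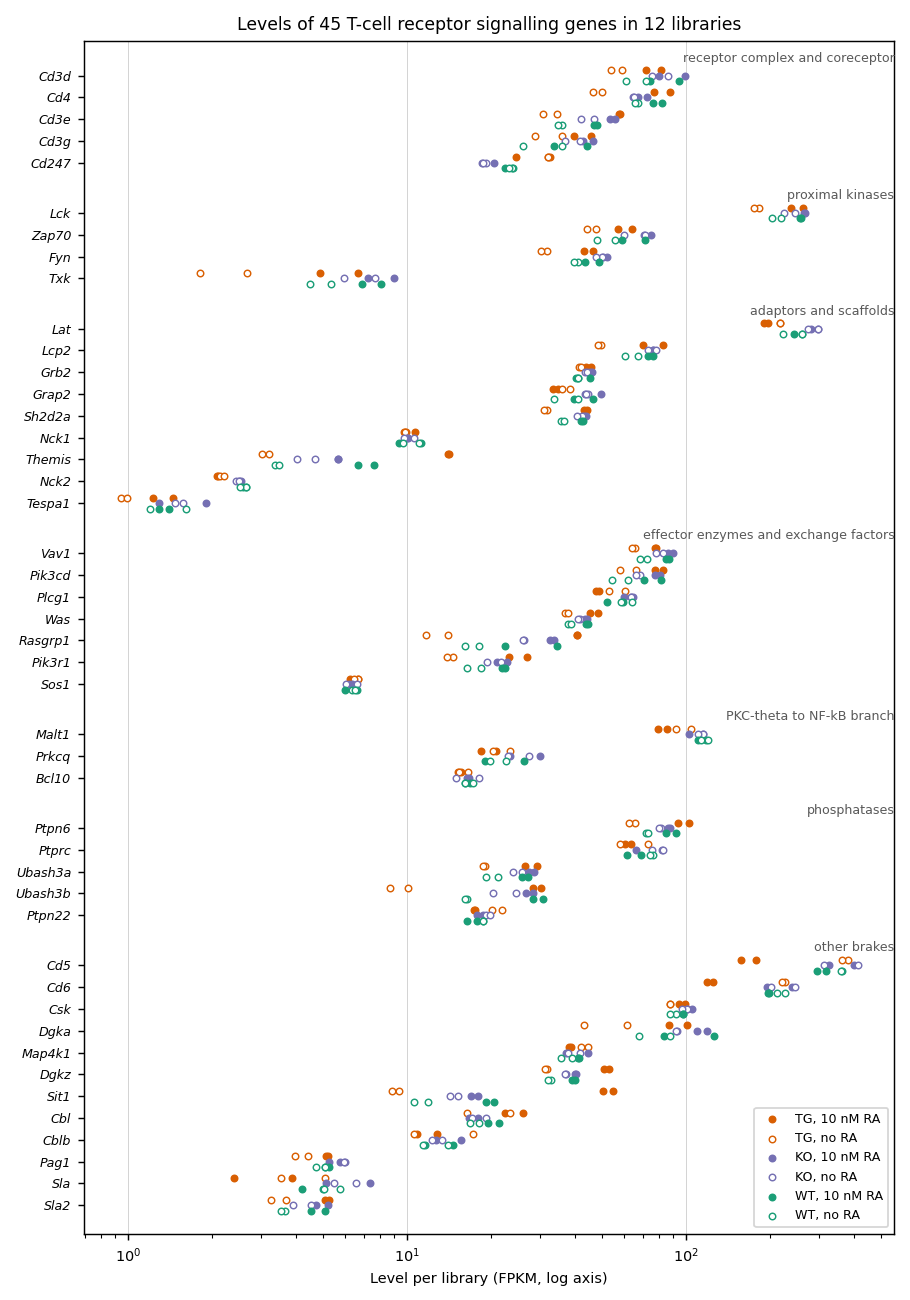
Level of each of the 45 components in FPKM (log axis), grouped by role, with 1 point per library and 1 colour per genotype, filled with 10 nM RA and open without RA. In Sit1 and Themis the TG points with RA lie furthest right (50.6 to 55.0 and 14.0 to 14.2 FPKM), and in Cd5 and Cd6 they lie furthest left (158 to 178 and 119 to 125 FPKM).

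In TG cells, RA changed most of the pathway. Of the 45 components, 24 rose and 4 fell with RA, and 17 did not pass the test (limma on log2(FPKM + 1), Benjamini-Hochberg adjusted p at 0.05 over all tested genes). This comparison called 39.1% of all tested genes, 19.7% higher and 19.4% lower. The median log2 difference of the components was 0.29, against -0.02 over all tested genes. Without TG replicate 1 without RA, the number that fell was 2. Same-numbered libraries of a genotype may share a source, which the main RA tests here and below did not take into account. Counts with a replicate block were higher and are given further on. In bulk RNA, fewer cells of a type and less RNA per cell cannot be told apart.

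The receptor complex and its coreceptor had 3 of 5 members higher in TG cells with RA. Cd3e, the epsilon chain that every CD3 dimer of the receptor contains, had 57.4 and 58.1 FPKM in TG cells with RA, against 34.6 and 30.8 FPKM in TG cells without RA, a log2 difference of 0.80 ± 0.07 (SE, n = 2 each, adjusted p = 4e-05). Cd4, the coreceptor that brings Lck to the complex, had 87.7 and 76.8 FPKM with RA, against 49.9 and 46.6 FPKM without RA (0.75 ± 0.07, adjusted p = 7.9e-05). The groups of both genes did not overlap. With 2 libraries a group, such gaps are common. In the libraries labelled KO, 24.1% of all tested genes had those with RA above those without RA with no overlap, where 0.143% were called. That share is of the KO comparison only, and RA in TG called 39.1% of all tested genes. The matching shares for RA in TG, RA in WT and TG against WT are not given here. Gaps between groups are therefore given here and below as a description, not as a test. The delta chain Cd3d rose by 0.43 ± 0.15 (adjusted p = 0.043), to 81.3 and 72.0 FPKM in TG cells with RA, against 59.1 and 53.9 FPKM without RA. Its call ended when any of the 4 TG libraries was left out (0.35 to 0.52). Cd3g, the gamma chain, had 45.9 and 39.8 FPKM with RA and 36.0 and 28.8 FPKM without RA, and Cd247, which encodes the zeta chain, had 32.6 and 24.6 FPKM with RA and 32.0 and 32.2 FPKM without RA. Neither passed the test.

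All 4 proximal kinases rose in TG cells with RA. Txk, a Tec-family kinase, had 6.71 and 4.89 FPKM in TG cells with RA, against 2.67 and 1.82 FPKM without RA (log2 difference 1.07 ± 0.19, adjusted p = 0.0023). Lck rose by 0.49 ± 0.07 (adjusted p = 0.00065), to 264 and 238 FPKM with RA, against 183 and 175 FPKM without RA. Fyn, the second Src-family kinase of the receptor, rose by 0.52 ± 0.07 (adjusted p = 0.00038). Zap70 rose by 0.40 ± 0.12 (adjusted p = 0.028), with a call that ended without TG replicate 1 or 2 without RA or TG replicate 1 with RA (0.31 to 0.48). In none of these kinases did the TG groups overlap.

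Among the 9 adaptors and scaffolds, Themis, Lcp2 and Sh2d2a rose and none fell. Themis, an adaptor that binds Grb2 and the phosphatase Shp-1 and is needed for thymocyte selection, had 14.2 and 14.0 FPKM in TG cells with RA, against 3.03 and 3.21 FPKM in TG cells without RA (1.87 ± 0.08, adjusted p = 8.4e-07). All other libraries of the study lay between these groups, at 3.38 to 7.62 FPKM. Lcp2, which encodes Slp-76, rose by 0.63 ± 0.08 (adjusted p = 0.00039), and Sh2d2a, the Lck-binding adaptor TSAd, rose by 0.46 ± 0.04 (adjusted p = 4.8e-05). Lat, Grap2, Grb2, Nck1, Nck2 and Tespa1 did not pass the test. Lat, the scaffold on which the signalling complex forms, had 198 and 191 FPKM with RA and 217 and 217 FPKM without RA.

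Of the 7 effector enzymes and exchange factors, 5 rose in TG cells with RA. Rasgrp1, which activates Ras in response to diacylglycerol, had 40.7 and 40.9 FPKM in TG cells with RA, against 14.1 and 11.7 FPKM without RA (1.60 ± 0.17, adjusted p = 0.00014). Pik3r1, the regulatory subunit of phosphoinositide 3-kinase, had 23.3 and 27.0 FPKM with RA, against 14.7 and 13.9 FPKM without RA (0.77 ± 0.09, adjusted p = 0.00025). The groups of both genes were apart. The catalytic subunit Pik3cd rose by 0.37 ± 0.10 (adjusted p = 0.015). The actin regulator Was rose by 0.32 ± 0.04 (adjusted p = 0.00059), and the exchange factor Vav1 by 0.26 ± 0.05 (adjusted p = 0.0032). Without TG replicate 2 without RA, or without TG replicate 1 with RA, the Pik3cd call ended (0.27 and 0.32). The other 2 did not pass the test. Plcg1, the phospholipase that makes diacylglycerol, had 47.8 and 48.8 FPKM with RA and 60.8 and 52.9 FPKM without RA, and Sos1, the other Ras exchange factor of the group, had 6.24 and 6.66 FPKM with RA and 6.66 and 6.47 FPKM without RA.

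The branch to NF-kB had no member that rose. Malt1, the protease that carries the signal on with Bcl10, fell by 0.25 on the log2 scale (SE 0.08, adjusted p = 0.036), to 79.3 and 85.7 FPKM in TG cells with RA, against 104 and 92.6 FPKM without RA. This call ended without TG replicate 1 without RA or either TG library with RA (-0.33 to -0.17). The kinase Prkcq and Bcl10 did not pass the test.

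The phosphatases and brakes held both the largest rise and the largest fall of the 45 components. Sit1, a transmembrane adaptor that recruits the phosphatase Shp-2 and Csk and dampens TCR signals, had 55.0 and 50.6 FPKM in TG cells with RA, against 9.40 and 8.84 FPKM in TG cells without RA (2.41 ± 0.07, adjusted p = 2.6e-07). No library of the other 5 groups exceeded the 20.6 FPKM of WT replicate 2 with RA. Ubash3b, the phosphatase Sts-1 that acts on Zap70, had 30.2 and 28.3 FPKM in TG cells with RA, against 10.1 and 8.68 FPKM without RA (1.54 ± 0.10, adjusted p = 8.5e-06). In this gene the TG cells without RA were the low group, and TG, KO and WT cells with RA all lay between 26.8 and 30.8 FPKM.

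Both diacylglycerol kinases, which remove the second messenger that Rasgrp1 senses, also rose in TG cells with RA. Dgkz had 52.9 and 50.9 FPKM with RA, against 31.8 and 31.2 FPKM without RA (0.70 ± 0.04, adjusted p = 4.5e-06). Dgka had 101 and 87.3 FPKM with RA, against 61.4 and 43.1 FPKM without RA (0.86 ± 0.22, adjusted p = 0.014). The wide spread of Dgka showed when libraries were left out, since its call ended without TG replicate 2 without RA (0.61) and without TG replicate 1 with RA (0.75). Ptpn6, which encodes Shp-1, rose by 0.61 ± 0.06 (adjusted p = 8.3e-05), and Ubash3a, the relative of Ubash3b, rose by 0.54 ± 0.07 (adjusted p = 0.00039). Sla2, an adaptor that promotes receptor turnover, rose by 0.47 ± 0.09 (adjusted p = 0.0031). Pag1, the membrane anchor of Csk, rose by 0.25 ± 0.07 and Csk, the kinase that holds Lck inactive, by 0.15 ± 0.05 (adjusted p = 0.019 and 0.034). The Pag1 call ended without TG replicate 2 without RA or either TG library with RA (0.19 to 0.31). The Csk call ended without either TG library without RA or TG replicate 1 with RA (0.11 to 0.18).

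The brakes that fell were the surface receptors Cd5 and Cd6 and the phosphatase Ptpn22. Cd5 had 178 and 158 FPKM in TG cells with RA, against 381 and 363 FPKM in TG cells without RA (-1.15 ± 0.14, adjusted p = 0.00028). Cd6 had 125 and 119 FPKM with RA, against 227 and 222 FPKM without RA (-0.87 ± 0.11, adjusted p = 0.00041). In both genes the TG libraries with RA were the lowest of all 12. The phosphatase Ptpn22, which acts with Csk on Lck, had 17.6 and 17.4 FPKM in TG cells with RA, against 22.0 and 20.2 FPKM without RA (-0.25 ± 0.06, adjusted p = 0.0089), and its call ended without TG replicate 1 without RA (-0.20). The ubiquitin ligases Cbl and Cblb, the kinase Map4k1 and the adaptor Sla did not pass the test. Neither did the phosphatase Ptprc (CD45), which is listed here by enzyme class and not as a brake.

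Promoters are shown, from the RefSeq table for GRCm38.p6, for 5 genes that moved in opposite directions, Sit1, Themis, Ubash3b and Cd3e among those that rose and Cd5 among those that fell, so that their sequences can be set beside their values. Each line gives the 250 bases before an annotated start, 5′ to 3′ on the strand of the gene, with capitals on any match to a hexamer that retinoic acid receptors and related nuclear receptors can bind. For Themis, only the first RefSeq entry is shown. The 4 hexamers searched were the common form AGGTCA and its variants, namely AGTTCA as well as GGGTCA and finally also GGTTCA. The windows are chr4:43483710-43483959 (minus strand) for Sit1, chr10:28668110-28668359 (plus strand) for Themis, chr9:41158063-41158312 and chr9:41079507-41079756 (both minus strand) for the 2 starts of Ubash3b, chr9:45009612-45009861 (minus strand) for Cd3e and chr19:10738975-10739224 (minus strand) for Cd5.
Sit1: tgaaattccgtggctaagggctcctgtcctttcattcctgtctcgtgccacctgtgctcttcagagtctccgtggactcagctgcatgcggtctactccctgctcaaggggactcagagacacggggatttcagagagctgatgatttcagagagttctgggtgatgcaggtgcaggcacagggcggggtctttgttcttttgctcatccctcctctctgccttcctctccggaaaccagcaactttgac
Themis: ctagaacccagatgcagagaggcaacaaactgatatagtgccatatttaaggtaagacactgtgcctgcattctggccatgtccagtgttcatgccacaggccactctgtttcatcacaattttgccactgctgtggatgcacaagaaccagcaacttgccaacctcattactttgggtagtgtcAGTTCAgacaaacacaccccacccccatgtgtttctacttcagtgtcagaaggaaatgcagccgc
Ubash3b, start 1: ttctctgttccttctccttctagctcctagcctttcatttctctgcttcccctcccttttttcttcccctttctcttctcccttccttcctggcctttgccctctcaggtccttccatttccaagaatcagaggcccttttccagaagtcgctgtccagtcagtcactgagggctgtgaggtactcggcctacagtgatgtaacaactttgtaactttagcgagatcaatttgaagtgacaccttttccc
Ubash3b, start 2: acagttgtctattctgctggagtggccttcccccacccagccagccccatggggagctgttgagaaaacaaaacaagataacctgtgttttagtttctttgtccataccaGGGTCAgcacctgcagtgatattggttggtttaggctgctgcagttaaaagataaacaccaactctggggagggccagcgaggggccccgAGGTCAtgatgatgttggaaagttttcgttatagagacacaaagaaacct
Cd3e: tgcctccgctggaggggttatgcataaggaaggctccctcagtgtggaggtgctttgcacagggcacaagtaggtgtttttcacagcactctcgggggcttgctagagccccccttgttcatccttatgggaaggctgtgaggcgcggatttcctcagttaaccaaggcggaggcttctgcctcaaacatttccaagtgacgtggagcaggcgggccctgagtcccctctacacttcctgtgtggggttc
Cd5: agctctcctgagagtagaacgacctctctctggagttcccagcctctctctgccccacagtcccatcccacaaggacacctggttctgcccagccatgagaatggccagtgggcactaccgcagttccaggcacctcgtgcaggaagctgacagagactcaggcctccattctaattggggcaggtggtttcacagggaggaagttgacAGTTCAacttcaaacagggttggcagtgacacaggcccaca

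Both strands were searched and overlapping matches were each counted. The Themis window shown held AGTTCA with its first base 65 bases before the start, Cd5 held AGTTCA 41 bases before it, and the start 2 window of Ubash3b held GGGTCA 140 bases and AGGTCA 50 bases before it. The windows of Sit1, Cd3e and start 1 of Ubash3b held none of the 4. Over the 57 windows of the 38 components with an entry, 18 (31.6%) held at least 1 of the 4 hexamers, against 38.6% of all 32851 windows in the table. AGGTCA alone was in 8 of the 57 windows (14.0%), against 14.0% of all windows. A pair of AGGTCA in the same orientation, spaced by 1, 2 or 5 bases, was in 0 of the 57 windows and in 0.0517% of all windows.

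In WT cells, RA raised 14 components and lowered none, where the comparison called 10.1% of all tested genes (6.67% higher, 3.47% lower). The median log2 difference was 0.21, against 0.02 over all tested genes. The largest rises were in brakes and adaptors. Themis had 7.62 and 6.67 FPKM in WT cells with RA, against 3.38 and 3.48 FPKM in WT cells without RA (0.88 ± 0.08, adjusted p = 0.00066). Ubash3b had 30.8 and 28.4 FPKM with RA, against 16.4 and 16.1 FPKM without RA (0.82 ± 0.10, adjusted p = 0.002). Sit1 had 19.2 and 20.6 FPKM with RA, against 11.9 and 10.6 FPKM without RA (0.77 ± 0.07, adjusted p = 0.00072). Groups were apart in all 3 genes, and these were the 3 of the 14 whose calls held when any single WT library was left out.

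The next genes by size were Rasgrp1, Cd3e, Pik3cd, Ubash3a and Sla2. Rasgrp1 had 34.6 and 22.5 FPKM in WT cells with RA, against 18.2 and 16.2 FPKM without RA (0.67 ± 0.17, adjusted p = 0.038). Its value rested on WT replicate 1 with RA: the log2 difference was 0.37 without that library and 0.97 without WT replicate 2 with RA. Cd3e had 48.1 and 46.9 FPKM with RA, against 36.1 and 34.8 FPKM without RA (0.41 ± 0.07, adjusted p = 0.008). Pik3cd rose by 0.38 ± 0.10 (adjusted p = 0.041), to 81.6 and 70.6 FPKM with RA, against 62.3 and 54.3 FPKM without RA. Ubash3a had 27.1 and 25.8 FPKM with RA, against 21.3 and 19.2 FPKM without RA (0.37 ± 0.07, adjusted p = 0.013). Sla2 rose by 0.34 ± 0.09 (adjusted p = 0.046), to 5.08 and 4.54 FPKM with RA, against 3.66 and 3.53 FPKM without RA. Groups did not overlap in any of these 5 genes, which is common with 2 libraries a group.

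The other 6 called components in WT, namely Lck, Ptpn6, Vav1, Dgkz, Sh2d2a and Was, had log2 differences of 0.21 to 0.29. Without single libraries the count of called components was 7 (WT replicate 1 without RA), 3 (WT replicate 2 without RA), 5 (WT replicate 1 with RA) and 10 (WT replicate 2 with RA). The calls of Lck, Was and Sla2 ended without any 1 of the 4 libraries, that of Ptpn6 without each but WT replicate 1 with RA, and those of Pik3cd, Sh2d2a and Rasgrp1 without each but WT replicate 2 with RA. Those of Vav1, Cd3e and Ubash3a ended without WT replicate 2 without RA or WT replicate 1 with RA, and that of Dgkz without WT replicate 2 without RA. Cd5 had 318 and 296 FPKM with RA and 362 and 361 FPKM without RA in WT, and Cd6 had 197 and 199 FPKM with RA and 226 and 213 FPKM without RA. Neither passed the test, although the 2 groups of each gene did not overlap.

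**Figure D2:**
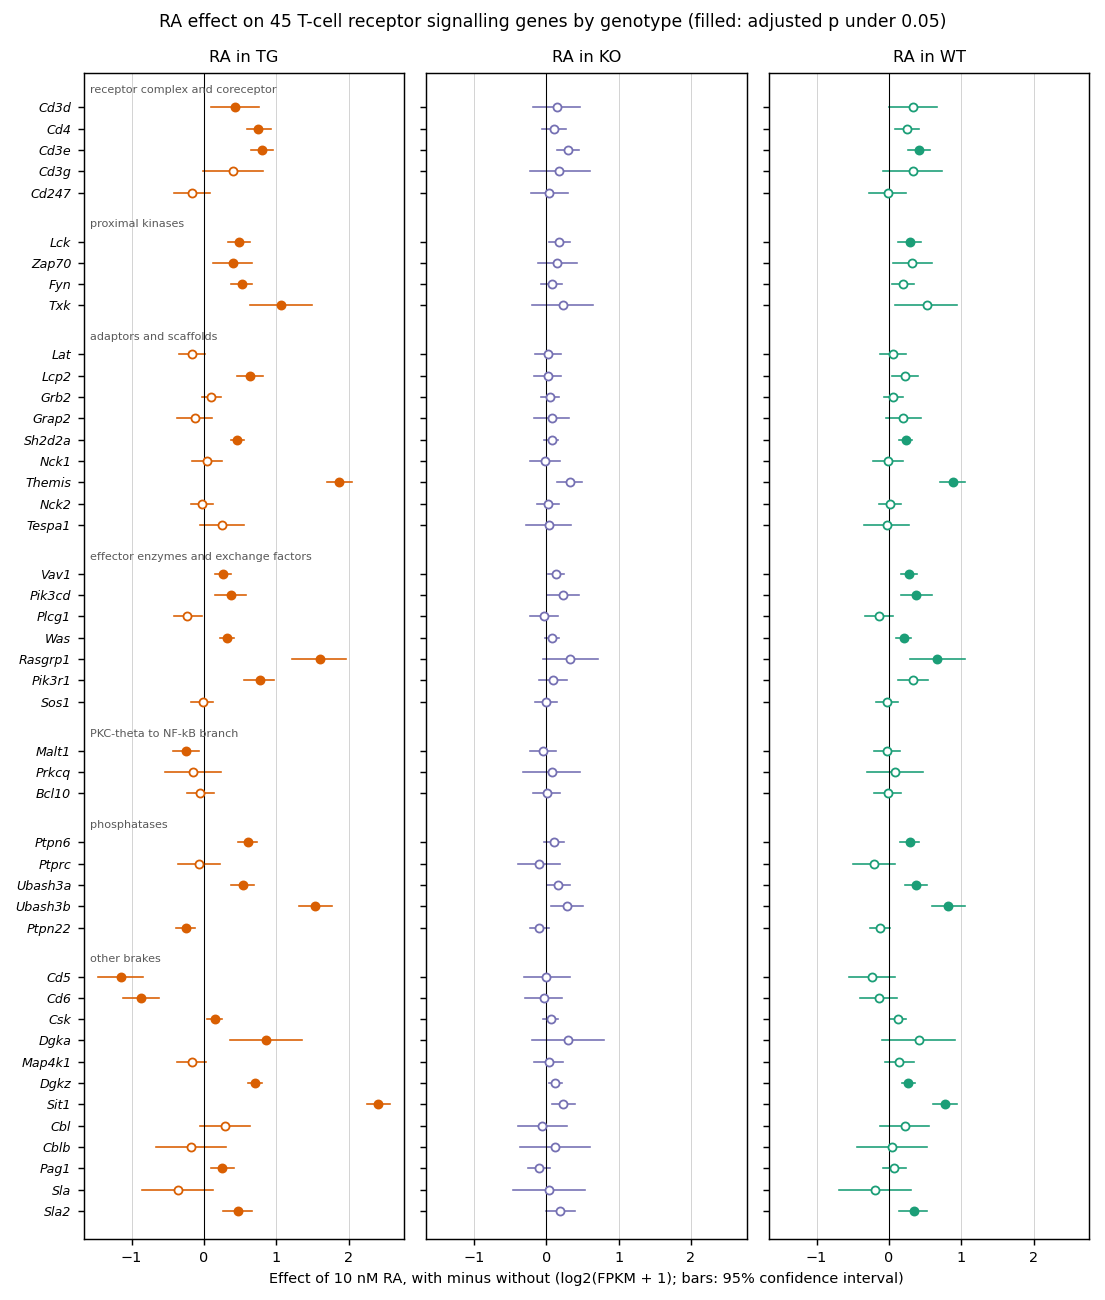
Log2 difference, with RA minus without RA, of each of the 45 components in TG, KO and WT cells, ordered by role, with bars for 95% confidence intervals and filled points for an adjusted p under 0.05. Sit1 (2.41), Themis (1.87), Rasgrp1 (1.60) and Ubash3b (1.54) reach furthest to the right in TG cells, and Cd5 (-1.15) and Cd6 (-0.87) furthest to the left.

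All 14 components that rose with RA in WT also rose with RA in TG, 2 comparisons whose group means share no libraries. They were 100% of the WT list and 58.3% of the 24 in the TG list. Both tests took each gene's spread from the same fit over all libraries, so the 2 lists of calls are not independent. Over all tested genes, 712 were called higher in both, which was 89.6% of the 795 called higher in WT and 30.3% of the 2350 called higher in TG. The 10 called higher in TG but not in WT were Cd3d, Cd4, Csk, Dgka, Fyn, Lcp2, Pag1, Pik3r1, Txk and Zap70. Such a split of calls does not show a difference between the genotypes, which is tested further on.

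In the libraries labelled KO, limma called no component with RA against without RA, where the comparison called 0.143% of all tested genes. The smallest adjusted p among the 45 was 0.15. At an unadjusted p under 0.05 there were 9 components, by limma as well as by limma voom on recovered reads, and voom also called 0. Over all tested genes, 10.7% had such a p by limma. The log2 differences ranged from -0.10 to 0.33 with a median of 0.07, against 0.01 over all tested genes. The 14 components that rose in WT had positive values in KO in all 14 cases, with a median of 0.19 and with groups that did not overlap. Over all tested genes, 24.1% had KO libraries with RA above those without RA with no overlap. These 14 were picked for their rise in WT, and the matching share among all 795 genes called higher in WT is not given. The count is thus not shown to be particular to the components. Sit1 had 18.0 and 17.0 FPKM in KO cells with RA and 15.2 and 14.3 FPKM without RA. Themis had 5.66 and 5.68 FPKM with RA and 4.04 and 4.69 FPKM without RA, and Ubash3b had 28.4 and 26.8 FPKM with RA and 24.7 and 20.3 FPKM without RA. In these 3 genes the KO libraries without RA were above the WT libraries without RA.

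Whether the RA effect itself differed between KO and WT was tested as an interaction, which called 0.00839% of all tested genes and 0 of the 45 components by limma. At an unadjusted p under 0.05 there were 5 components by limma, where 5.37% of all tested genes had such a p, and 5 by voom, which also called 0. The largest differences of the effects, KO minus WT, were -0.56 ± 0.11 for Themis (adjusted p = 0.29), -0.54 ± 0.10 for Sit1 (adjusted p = 0.29) and -0.54 ± 0.14 for Ubash3b (adjusted p = 0.48). A smaller effect in KO was thus not called, and equal effects were not shown either.

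The RA effect differed between TG and WT for 9 components, where the same test called 7.48% of all tested genes. It was more positive in TG for Sit1 (difference of log2 effects 1.64 ± 0.10, adjusted p = 7.1e-05), Themis (1.00 ± 0.11, adjusted p = 0.0013), Ubash3b (0.72 ± 0.14, adjusted p = 0.018) and Cd4 (0.51 ± 0.10, adjusted p = 0.021). It was also more positive for Dgkz (0.43 ± 0.06, adjusted p = 0.0035), Cd3e (0.39 ± 0.10, adjusted p = 0.046) and Sh2d2a (0.24 ± 0.06, adjusted p = 0.044). It was more negative in TG for Cd5 (-0.91 ± 0.19, adjusted p = 0.026) and Cd6 (-0.72 ± 0.16, adjusted p = 0.027). Rasgrp1, with a difference of 0.92, missed the threshold at an adjusted p of 0.051. The other 35 components were not called either, and the median difference over all 45 was 0.08, against -0.03 over all tested genes.

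The calls for Sit1, Themis and Dgkz held when any of the 8 TG and WT libraries was left out. Those of Cd5, Cd6 and Sh2d2a ended without any 1 of the 8 (-0.82 at the least for Cd5, -0.77 to -0.68 for Cd6, 0.22 to 0.25 for Sh2d2a), and that of Cd3e ended without each but TG replicate 1 without RA (0.31 to 0.47). Ubash3b and Cd4 lost their calls without either WT library without RA, WT replicate 2 with RA, TG replicate 2 without RA or TG replicate 1 with RA (0.62 to 0.82 for Ubash3b, 0.41 to 0.60 for Cd4). The count was 3 without either WT library without RA, TG replicate 2 without RA or TG replicate 1 with RA, and 4 without WT replicate 2 with RA.

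**Figure D3:**
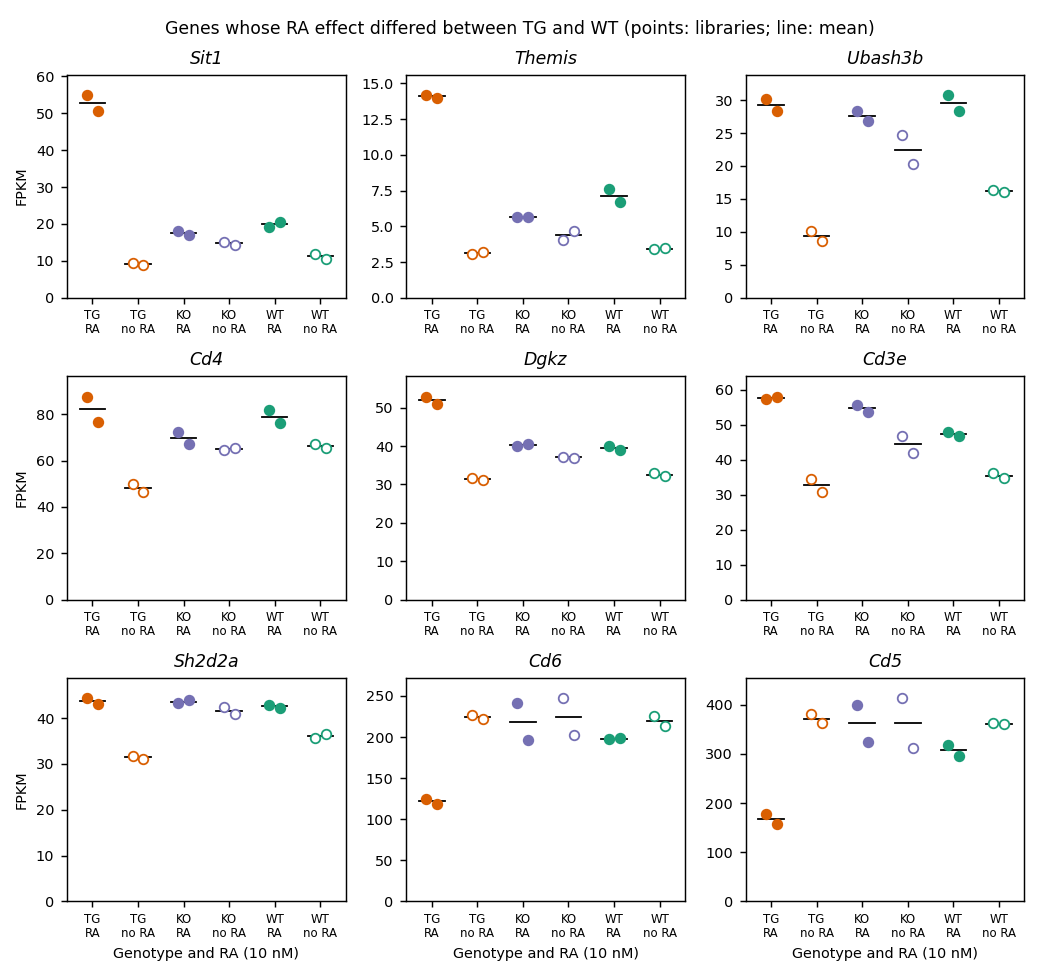
FPKM of the 9 components whose RA effect differed between TG and WT, with 1 point per library, filled with 10 nM RA and open without RA, and a line at each group's mean. Sit1 and Themis are highest in TG cells with RA (52.8 and 14.1 FPKM on average), and Cd5 and Cd6 are lowest there (168 and 122 FPKM). On average, Sit1, Themis, Dgkz, Cd3e, Ubash3b, Cd4 and Sh2d2a are lowest in TG cells without RA.

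Without RA, TG cells had 6 components lower than WT cells and none higher, where the comparison called 4.31% of all tested genes, 2.06% of them lower. Txk had 2.67 and 1.82 FPKM in TG cells, against 5.34 and 4.50 FPKM in WT cells (-0.88 ± 0.19, adjusted p = 0.037). Ubash3b had 10.1 and 8.68 FPKM in TG cells, against 16.4 and 16.1 FPKM in WT cells (-0.73 ± 0.10, adjusted p = 0.0064). Cd4 had 49.9 and 46.6 FPKM in TG cells, against 67.2 and 65.6 FPKM in WT cells (-0.45 ± 0.07, adjusted p = 0.014). The TG libraries lay below the WT libraries in each.

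Lcp2 had 49.7 and 48.5 FPKM in TG cells without RA, against 60.8 and 67.2 FPKM in WT cells without RA (-0.37 ± 0.08, adjusted p = 0.037). Fyn had 31.7 and 30.3 FPKM in TG cells, against 41.1 and 39.6 FPKM in WT cells (-0.37 ± 0.07, adjusted p = 0.02). Sh2d2a had 31.7 and 31.1 FPKM in TG cells, against 35.7 and 36.6 FPKM in WT cells (-0.20 ± 0.04, adjusted p = 0.033). All 6 genes were also among the 24 that rose with RA in TG cells, a comparison that uses the same TG libraries without RA. None of the 6 calls held without every single library: the count was 1 without either WT library, 2 without TG replicate 1 and 0 without TG replicate 2. The Ubash3b call ended only without TG replicate 2 (-0.63) and the Cd4 call without that library (-0.41) or either WT library (-0.44 and -0.47). With a term for sex, 2 components were called.

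With RA, TG cells had 4 components higher and 4 lower than WT cells, where the comparison called 11.5% of all tested genes (6.84% higher, 4.64% lower). Sit1 had 55.0 and 50.6 FPKM in TG cells, against 19.2 and 20.6 FPKM in WT cells (1.37 ± 0.07, adjusted p = 1.4e-05). Themis had 14.2 and 14.0 FPKM in TG cells, against 7.62 and 6.67 FPKM in WT cells (0.89 ± 0.08, adjusted p = 0.00024). Dgkz had 52.9 and 50.9 FPKM in TG cells, against 40.1 and 39.0 FPKM in WT cells (0.38 ± 0.04, adjusted p = 0.00063). These groups were apart, as were those of Cd3e, at 57.4 and 58.1 FPKM in TG cells against 48.1 and 46.9 FPKM in WT cells (0.28 ± 0.07, adjusted p = 0.034).

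On the lower side, Cd5 had 178 and 158 FPKM in TG cells with RA, against 318 and 296 FPKM in WT cells with RA (-0.87 ± 0.14, adjusted p = 0.0049). Cd6 had 125 and 119 FPKM in TG cells, against 197 and 199 FPKM in WT cells (-0.69 ± 0.11, adjusted p = 0.0052). Malt1 had 79.3 and 85.7 FPKM in TG cells, against 118 and 110.5 FPKM in WT cells (-0.47 ± 0.08, adjusted p = 0.0069). The groups of all 3 genes were apart, and so were those of Lat, at 198 and 191 FPKM in TG cells against 262 and 244 FPKM in WT cells (-0.38 ± 0.08, adjusted p = 0.017). The calls of Cd5, Cd6, Dgkz, Sit1 and Themis held without any single library. That of Cd3e ended without any 1 of the 4 (0.26 to 0.29), that of Malt1 without TG replicate 1 (-0.41), and that of Lat without either TG library or WT replicate 1 (-0.40, -0.35 and -0.32). The count without TG replicate 1 was 5.

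In the main fit, few components were called between the libraries labelled KO and WT. Without RA, the count was higher with a replicate block, as given further on. Without RA, Sit1 was the only called component, with 15.2 and 14.3 FPKM in KO cells, against 11.9 and 10.6 FPKM in WT cells (0.37 ± 0.07, adjusted p = 0.047), where the comparison called 1.74% of all tested genes. The call ended when any 1 of the 4 libraries was left out (0.29 to 0.44) and with a term for sex. At an unadjusted p under 0.05 there were 20 components by limma, where 15.2% of all tested genes had such a p, and 21 by voom. The difference was positive in 37 of the 45, and in 29 both KO libraries lay above both WT libraries, as they did in 27.6% of all tested genes. The median log2 difference of the components was 0.18, against 0.01 over all tested genes. With RA, limma called 0 components, where it called 0.881% of all tested genes. At an unadjusted p under 0.05 there were 6 components by limma, where 11.1% of all tested genes had such a p, and 5 by voom, which also called 0. Since all libraries labelled KO were female and all WT libraries male, genotype and sex cannot be told apart within these 2 genotypes.

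**Figure D4:**
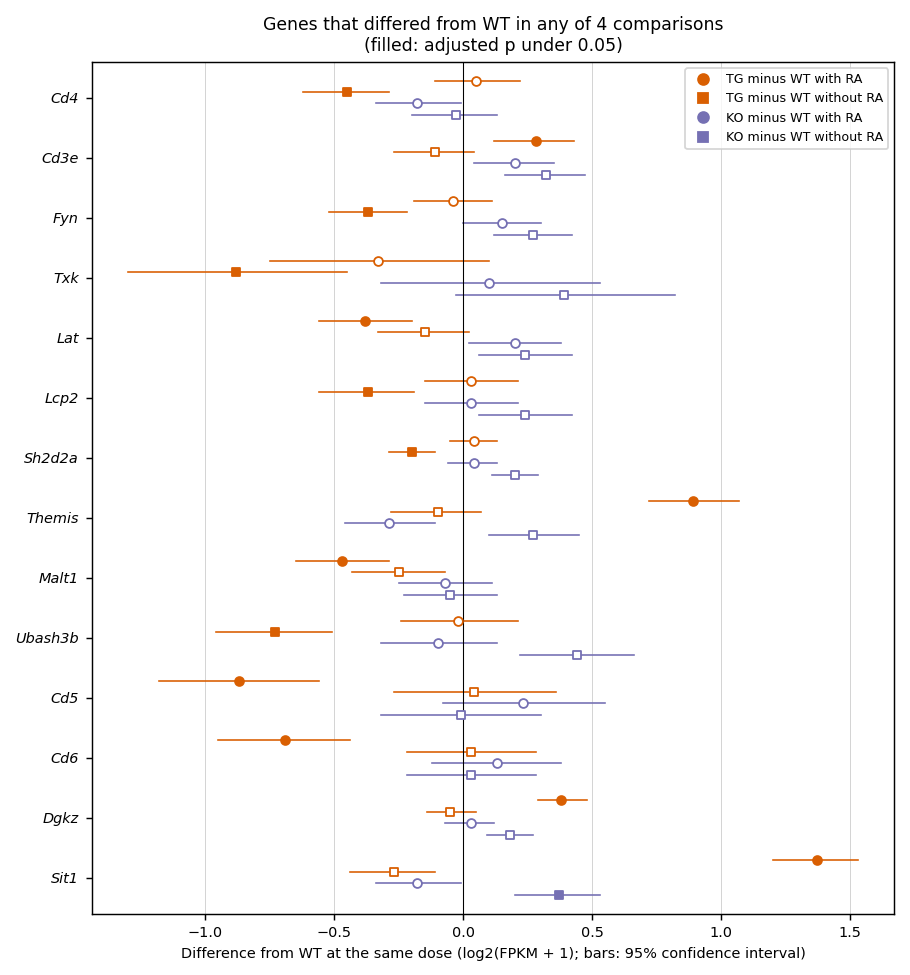
Log2 difference from WT in TG and KO cells, with RA (circles) and without RA (squares), of the 14 components called in any of these 4 comparisons, with bars for 95% confidence intervals and filled points for an adjusted p under 0.05. With RA, Sit1 (1.37) and Themis (0.89) lie above WT in TG cells and Cd5 (-0.87) and Cd6 (-0.69) below, while without RA the lowest points are Txk (-0.88) and Ubash3b (-0.73) in TG cells.

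Other genes of the pathway were taken from a list of 74, of which 70 were tested. With RA, 30 rose and 7 fell in TG cells, where 39.1% of all tested genes were called, and 10 rose and 1 fell in WT cells, where 10.1% were called. In KO cells 0 were called by limma or voom, where limma called 0.143% of all tested genes. There, 13 by limma and 15 by voom had an unadjusted p under 0.05, against 10.7% of all tested genes by limma. Among the leading genes in TG were Rasa3, a Ras GTPase-activating protein, with a mean of 97.9 FPKM in TG cells with RA and 9.01 FPKM without RA (3.31 ± 0.18, adjusted p = 2.7e-06), and Wipf1, the partner of Was (1.35 ± 0.05, adjusted p = 6e-07). Spn (CD43) rose by 1.22 ± 0.08 in TG (adjusted p = 1.3e-05) and by 0.63 ± 0.08 in WT (adjusted p = 0.0032). The adhesion receptor Cd2 fell by 1.29 on the log2 scale in TG (adjusted p = 4.1e-06) and by 0.64 in WT (adjusted p = 0.0018). The GTPase Hras (-0.61 ± 0.08, adjusted p = 0.0005), the adaptor Skap1 (-0.63 ± 0.08, adjusted p = 0.00054) and the kinase Map2k1 (-0.34 ± 0.07, adjusted p = 0.0039) also fell in TG. In WT, Wipf1 rose by 0.50 ± 0.05 (adjusted p = 0.001), the inhibitory adaptor Dok1 by 0.46 ± 0.07 (adjusted p = 0.0058) and the kinase Akt2 by 0.39 ± 0.06 (adjusted p = 0.0065).

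Between genotypes, the same list had 8 genes higher and 2 lower in TG than in WT with RA, where 11.5% of all tested genes were called, and 0 higher and 6 lower without RA, where 4.31% were called. Trat1, an adaptor that stabilises the receptor at the surface, averaged 51.6 FPKM in TG cells with RA and 5.64 FPKM in WT cells with RA (2.97 ± 0.30, adjusted p = 0.00053). With RA, Wipf1 (0.74 ± 0.05, adjusted p = 7.8e-05) and the adaptor Sh2d1a (0.62 ± 0.09, adjusted p = 0.0028) were also higher in TG, and Cd2 (-0.58 ± 0.07, adjusted p = 0.0017) and the calcium channel Orai1 (-0.32 ± 0.08, adjusted p = 0.04) were lower. Without RA, Rasa3 (-1.47 ± 0.18, adjusted p = 0.0039), the phosphatase Ptpn7 (-0.65 ± 0.08, adjusted p = 0.0048) and Rasal3 (-0.55 ± 0.10, adjusted p = 0.021) were lower in TG.

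KO differed from WT in 3 genes without RA, where 1.74% of all tested genes were called, among them the adaptor Lax1 (0.55 ± 0.10, adjusted p = 0.042) and the kinase Pak1 (-0.42 ± 0.07, adjusted p = 0.025). With RA it differed in 1 gene, Skap1 (0.49 ± 0.08, adjusted p = 0.04), where 0.881% of all tested genes were called. The RA effect differed between TG and WT in 15 of the 70, of which 14 were more positive in TG, where 7.48% of all tested genes were called. Among them were Rasa3 (2.43 ± 0.25, adjusted p = 0.00087), Wipf1 (0.85 ± 0.07, adjusted p = 0.00034) and Sh2d1a (0.85 ± 0.12, adjusted p = 0.005), and Cd2 was the gene with the more negative effect in TG (-0.66 ± 0.10, adjusted p = 0.0077).

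Markers of other cells moved with some groups. The summed level of 10 B-cell genes was 107 to 109 FPKM in TG cells with RA, 31.7 to 34.6 FPKM in TG cells without RA, 36.7 to 65.7 and 30.9 to 53.0 FPKM in KO cells with and without RA, and 56.1 to 128 and 30.0 to 105 FPKM in WT cells with and without RA. Most of it was Ighm, at 101 and 95.9 FPKM in TG cells with RA and 27.5 and 27.6 FPKM in TG cells without RA. The other 9 genes summed to 8.04 and 11.2 FPKM in TG cells with RA, to 4.17 and 6.97 FPKM in TG cells without RA, to 5.48 and 12.7 FPKM in KO cells with RA, to 4.30 and 12.5 FPKM in KO cells without RA, to 5.61 and 32.3 FPKM in WT cells with RA and to 4.48 and 32.8 FPKM in WT cells without RA. Replicate 2 was thus the higher library in every group, with the widest gap in WT.

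The 8 dendritic and class II genes summed to 32.1 to 42.9 FPKM in TG cells with RA, 27.5 to 43.8 FPKM in TG cells without RA, 25.5 to 78.3 FPKM over the KO libraries and 23.7 to 165 FPKM over the WT libraries. Of the 5 tested among them, 1 was called higher with RA in TG cells. Itgax had 1.2 and 1.76 FPKM in TG cells with RA, against 0.0317 and 0.139 FPKM without RA. The 8 myeloid genes stayed at 0.975 to 18.7 FPKM, with Itgam listed at 0 in all 12 libraries. The mitochondrial genes mt-Co2, mt-Atp6 and mt-Co3, which every cell uses, were also listed at 0 in all 12, so a listed 0 was not read as a low level. The pair of CD8 genes summed to 3.34 to 4.18 FPKM in TG cells with RA, 2.01 to 2.64 FPKM in TG cells without RA and 1.55 to 2.40 FPKM in the other groups. The 5 NK and gamma-delta genes summed to 7.70 to 9.19 FPKM in TG cells with RA, 47.9 to 53.8 FPKM in TG cells without RA, 11.5 to 15.2 FPKM in KO cells and 13.9 to 21.6 FPKM in WT cells. The shift in TG was in Klrd1, with a mean of 4.76 FPKM in TG cells with RA and 47.2 FPKM in TG cells without RA, while the gamma-delta receptor gene Trdc averaged 3.47 FPKM with RA and 3.49 FPKM without RA, and Ncr1, Klrb1c and Klrk1 did not exceed 0.623 FPKM in any library. The part of these cells or genes in the results above was not tested.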

How the data were processed

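RNA-seq of 12 libraries in 6 groups was analysed from 1 table of FPKM values that the authors deposited. Per the submitters' processing notes, HTSeq 0.6.1, STAR, Trimmomatic 0.32 and DESeq2 were used, with the builds mm10 and GRCm38.p5. Libraries came from a stranded kit and single-end reads, per the labels' protocols, while the strand setting of the counting is not given in the sources used here, so reads of overlapping or antisense genes may not be separated.

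From the deposited FPKM, log2(FPKM + 1) was computed, and genes with at least 1 FPKM in at least 2 libraries were kept (11922). All 12 libraries entered 1 limma 3.58.1 fit (R 4.3.3) with 6 group means, no replicate block and an intensity trend, with two-sided tests, p-values adjusted by Benjamini-Hochberg within each comparison over all tested genes, and calls at 0.05. Fold changes on this log2 scale understate the changes of low genes. Read numbers were recovered from FPKM and GENCODE M21 exon lengths (16274361 to 25514982 per library). Of values up to 20 reads, 95.3% to 96.0% fell within 0.02 of a whole number. These reads were used for depth and for limma voom as an alternative. Depth sets the counting error of each value.

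The 45 components, their roles and the gene lists were chosen with earlier results of these data known. Full values are given for up to 8 called components in each direction per comparison with the largest log2 differences, and for up to 4 called genes of each other list in each direction with the smallest p, apart from a result that is not reported here. Values named outside that rule were chosen after they were seen. No 2 libraries held identical values. Alternatives were another pseudocount (0.1), no filter, upper-quartile scaling, the compared libraries alone, replicate blocks, a sex term, voom and leaving out each library. An exact permutation test over 2 against 2 libraries cannot pass the threshold and was not used.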

Additional observations from a re-analysis of the deposited data

Results flagged for a closer look

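The 9 components whose response to RA differed between TG and WT by the interaction test deserve a second look. The difference of log2 effects, TG minus WT, was 1.64 for Sit1, 1.00 for Themis, 0.72 for Ubash3b, 0.51 for Cd4, 0.43 for Dgkz, 0.39 for Cd3e and 0.24 for Sh2d2a, and it was -0.72 for Cd6 and -0.91 for Cd5. All 9 were called within TG, and in WT RA had called Sit1, Themis, Ubash3b, Dgkz, Cd3e and Sh2d2a but not Cd4, Cd5 or Cd6. For 6 of the 9, the call ended when at least 1 library was left out, and Sit1, Themis and Dgkz were the exceptions. Groups of 2 libraries are too small to look for libraries that stand apart within a group.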

How the results depend on the processing

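Of the individual calls, 3 of 14 for RA in WT (Themis, Sit1 and Ubash3b), 20 of 28 for RA in TG, 5 of 8 for TG against WT with RA, 3 of 9 for the RA effect in TG minus WT, 0 of 6 for TG against WT without RA and 0 of 1 for KO against WT without RA held under every alternative and without any single library, and none changed sign. Leaving out single libraries gave 3 to 10 called components for RA in WT, 22 to 25 for RA in TG (18 to 22 higher, 2 to 5 lower), 0 to 2 for TG against WT without RA, 5 to 7 for TG against WT with RA, 3 to 7 for the RA effect in TG minus WT, and 0 for KO against WT without RA. With only the compared libraries in the fit, the counts were 3 for RA in WT, 0 for KO against WT without RA, 0 for TG against WT without RA and 5 for TG against WT with RA, where fewer libraries leave fewer residual degrees of freedom. KO against WT without RA also gave 0 with upper-quartile scaling, with a sex term and with voom, and TG against WT without RA gave 2 with a sex term. RA in KO, KO against WT with RA and the RA effect in KO minus WT gave 0 in every setting. The replicate numbers do not mark shared animals in the labels, and deviations of same-numbered libraries correlated at 0.004 to 0.327 over 15 pairs of groups, above 0.1 in 10 of them. They were 0.147, 0.32 and 0.327 between the conditions within TG, KO and WT. As not every pair of groups exceeded 0.1, the numbers were not treated as pairing in the main fit. The RA test within a genotype, however, rests only on the pair of groups within that genotype. The values within TG, KO and WT did all exceed 0.1, and in TG the sex of the libraries went with the number. Same-numbered libraries of a genotype may therefore share a source, which the main RA tests do not take into account. With the replicate block, the count was 21 for RA in WT, 32 for RA in TG (25 higher, 7 lower), 13 for the RA effect in TG minus WT, 10 for KO against WT without RA and 10 for TG against WT without RA, and with the replicate block within genotype it was 22 for RA in WT, 33 for RA in TG (25 higher, 8 lower) and 14 for the RA effect in TG minus WT. The cause of these changes was not tested.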

Other observations

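Genes that TCR stimulation is known to induce moved in both directions with RA. Of 18 such genes, 6 rose and 6 fell in TG cells, where 39.1% of all tested genes were called. In WT cells 2 rose and 2 fell, where 10.1% of all tested genes were called. In KO cells 0 were called by limma or voom, where limma called 0.143% of all tested genes. There, 4 had an unadjusted p under 0.05 by either tool, against 10.7% of all tested genes by limma. In TG cells, the costimulatory receptor Tnfrsf9 (4-1BB) averaged 35.1 FPKM with RA and 5.36 FPKM without RA (log2 difference 2.50 ± 0.14, adjusted p = 3.9e-06). The activation marker Cd69 rose by 1.12 ± 0.09 in TG (adjusted p = 3.3e-05) and by 0.51 ± 0.09 in WT (adjusted p = 0.011), and the transcription factor Egr2 rose by 1.03 ± 0.12 in TG (adjusted p = 0.00021) and by 0.69 ± 0.12 in WT (adjusted p = 0.0092). Irf4, a transcription factor of activated lymphocytes, averaged 249.9 FPKM in TG cells with RA and 409 FPKM without RA (-0.71 ± 0.05, adjusted p = 8.3e-06), and 326 FPKM in WT cells with RA and 424 FPKM without RA (-0.38 ± 0.05, adjusted p = 0.002). Cd40lg, which encodes the ligand for CD40 on B cells, fell by 0.98 on the log2 scale in WT (adjusted p = 0.011). In TG, Il2 rose by 0.26 ± 0.07 (adjusted p = 0.019), and Nfkbid (-0.68 ± 0.11, adjusted p = 0.0012), Nr4a2 (-0.53 ± 0.09, adjusted p = 0.0019) and Myc (-0.35 ± 0.07, adjusted p = 0.0054) fell. The effect differed between TG and WT for Tnfrsf9 (2.17 ± 0.20, adjusted p = 0.0005), Cd69 (0.61 ± 0.13, adjusted p = 0.025) and Irf4 (-0.33 ± 0.06, adjusted p = 0.017).

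Without RA, 5 of the 18 were lower in TG than in WT and none was higher, where 2.06% of all tested genes were called lower. The cytokine gene Il2 averaged 19.8 FPKM in TG cells and 46.7 FPKM in WT cells (-1.20 ± 0.07, adjusted p = 0.00011). Spry1 (-0.85 ± 0.15, adjusted p = 0.019), Egr2 (-0.58 ± 0.12, adjusted p = 0.031) and Cd40lg (-0.86 ± 0.18, adjusted p = 0.032) were lower too. With RA, 1 was higher and 6 were lower in TG than in WT, where 6.84% of all tested genes were called higher and 4.64% lower. Il2 was at 23.9 FPKM in TG cells and 45.3 FPKM in WT cells (-0.89 ± 0.07, adjusted p = 0.00015). Tnfrsf9 was the higher gene (1.82 ± 0.14, adjusted p = 0.00014), and Irf4 (-0.38 ± 0.05, adjusted p = 0.0011), Nfkbid (-0.68 ± 0.11, adjusted p = 0.0048) and Spry1 (-0.94 ± 0.15, adjusted p = 0.0049) were also lower. Cd69 was called higher in KO than in WT without RA, at 24.7 FPKM in KO cells and 15.4 FPKM in WT cells (0.64 ± 0.09, adjusted p = 0.014). That comparison called 1.74% of all tested genes.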
